A study of Homo sapiens with 8 samples.

Results

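The neural crest and border transcription factors described here are TFAP2A, TFAP2B, TFAP2C, PAX3, PAX7, SNAI2, TWIST1, SOX9, MSX1 and MSX2. They are a named set, found through probe sets that the platform annotation ties to exactly 1 of these symbols. All 10 genes were found, with 23 probe sets, among 19775 genes and 54675 probe sets. For each gene the probe set brightest on average (mean log2 signal) was used, and the rest serve as a check.

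RNA was measured in a pair of established human embryonic stem cell lines, H1 and H9, with 2 arrays for each line and state. Undifferentiated cells grew in mTeSR1, a medium that keeps stem cells pluripotent. Embryoid bodies (EB), floating aggregates in which stem cells begin to differentiate, were formed for 3 days from cells detached with Accutase, on ultra low attachment plates in hESGM lacking bFGF and with 10 µM Y-27632, an inhibitor of the kinase ROCK. State therefore changes together with medium, attachment and compound, and these cannot be told apart. The arrays are called biological replicates in the labels, which do not say that they came from separate cultures, so p-values speak only of the spread among these samples. Values are MAS5 intensities from Affymetrix U133 Plus 2.0 arrays, and a group is called dim when each of its arrays lies below its own array median, which ran from 68.7 to 86.0. Of the 8 libraries, 2 failed to match the labels of their group when identity was checked. The group they are in is written as the arrays labelled H9 EB, and the H1 and undifferentiated contrasts of the 10 factors are also given without it. Averages over the lines, changes in H9 and comparisons between EB of the lines need these arrays. Over genes, which are not replicates, Pearson correlations of arrays were 0.991 to 0.992 within a group and 0.901 to 0.915 between states. GAPDH control probe sets gave 3′ over 5′ ratios between 0.848 and 0.965. The labelled cell type held: the pluripotency gene NANOG read 9064 ± 254 (SD, n = 2) in undifferentiated H1 and 8178 ± 208 in undifferentiated H9, LIN28A was above the array median on all 8 arrays, and NANOG fell by 0.90 on the log2 scale in EB.

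The neural crest arises at the border between neural plate and surface ectoderm. BMP, WNT and FGF signals there switch on border specifiers, among them the TFAP2, PAX3/PAX7 and MSX genes, and these in turn act on crest specifiers such as SNAI2, TWIST1 and SOX9, which prepare cells to leave the epithelium. None of these factors belongs to the crest alone. TFAP2A, TFAP2C and MSX2 also act in surface ectoderm, amnion and trophoblast, TWIST1 and SNAI2 in mesoderm, and SOX9 in cartilage and gut.

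RefSeq promoter windows (GRCh38.p14) were at hand for 6 of the 10 genes, with 7 windows because TFAP2A has a pair of start sites. The 250 bases before the start are shown for 3 genes of different families that rose together, each from 5′ to 3′ on the gene's strand, with CpG dinucleotides in capitals. TFAP2B lies on the plus strand at chr6:50818621-50818870, PAX3 on the minus strand at chr2:222298999-222299248 and MSX1 on the plus strand at chr4:4859415-4859664.
TFAP2B promoter: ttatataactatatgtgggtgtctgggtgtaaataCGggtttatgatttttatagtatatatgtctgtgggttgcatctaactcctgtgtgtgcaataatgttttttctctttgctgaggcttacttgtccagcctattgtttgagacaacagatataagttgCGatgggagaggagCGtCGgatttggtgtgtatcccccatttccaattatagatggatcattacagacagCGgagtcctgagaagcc
PAX3 promoter: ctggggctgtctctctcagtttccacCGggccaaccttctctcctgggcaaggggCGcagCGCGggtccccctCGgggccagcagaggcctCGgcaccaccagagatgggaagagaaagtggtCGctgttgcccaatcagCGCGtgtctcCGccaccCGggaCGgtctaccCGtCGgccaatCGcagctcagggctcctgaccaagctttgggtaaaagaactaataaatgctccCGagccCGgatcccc
MSX1 promoter: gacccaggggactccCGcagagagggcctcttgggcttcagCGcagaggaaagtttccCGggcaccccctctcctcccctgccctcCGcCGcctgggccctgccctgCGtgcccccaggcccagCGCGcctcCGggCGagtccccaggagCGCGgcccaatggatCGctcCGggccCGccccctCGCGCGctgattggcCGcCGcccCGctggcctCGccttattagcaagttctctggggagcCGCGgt
These windows are unlike in composition. MSX1 has 24 CpG, PAX3 has 17 and TFAP2B has 5, where the median of 34788 distinct windows of this length is 11 CpG. Motifs of the factors themselves were searched on both strands. GCCNNNGGC, which TFAP2 proteins bind, was in 0 of the 7 windows and in 19.8% of all windows. CAGGTG, an E-box bound by SNAI2, was in 0 of 7 and in 17.5% of all. AACAATG, a core bound by SOX proteins, was in 0 of 7 and in 2.87% of all. TAATTG, a site of MSX homeodomains, was in 1 of 7, that of TFAP2B, starting -44 bases from the start site, and in 6.72% of all windows. A match describes letters, not a bound site.

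In EB, 9 of the 10 factors rose and TFAP2C was the exception. On average over the lines the called factors changed between 0.90 (SOX9) and 4.12 (TFAP2A) on the log2 scale, and the median over all 10 was 2.98. The averages of TFAP2A, TFAP2B and TWIST1 include a dim group. Over all 14056 tested genes the median was 0.010, while 35.4% were called higher and 33.1% lower at an adjusted p under 0.05 (limma with Benjamini-Hochberg adjustment, as for every adjusted p here). All 10 passed the filter on dim genes, and all 10 would have passed on the undifferentiated arrays alone. Within H1, 9 of 10 rose and none fell, where 29.6% of all genes rose and 28.1% fell. With the arrays labelled H9 EB, 9 of 10 rose in H9 and none fell, where 31.6% of all genes rose and 29.0% fell. Both EB arrays lay above both undifferentiated arrays for 10 of 10 factors in each line, against 40.5% of all genes in H1 and 41.4% in H9. The H1 change can be fitted with both of these arrays left out, and 9 of 10 were again called higher. In these bulk samples, more cells of a type and more RNA per cell cannot be told apart.

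**Figure D1:**
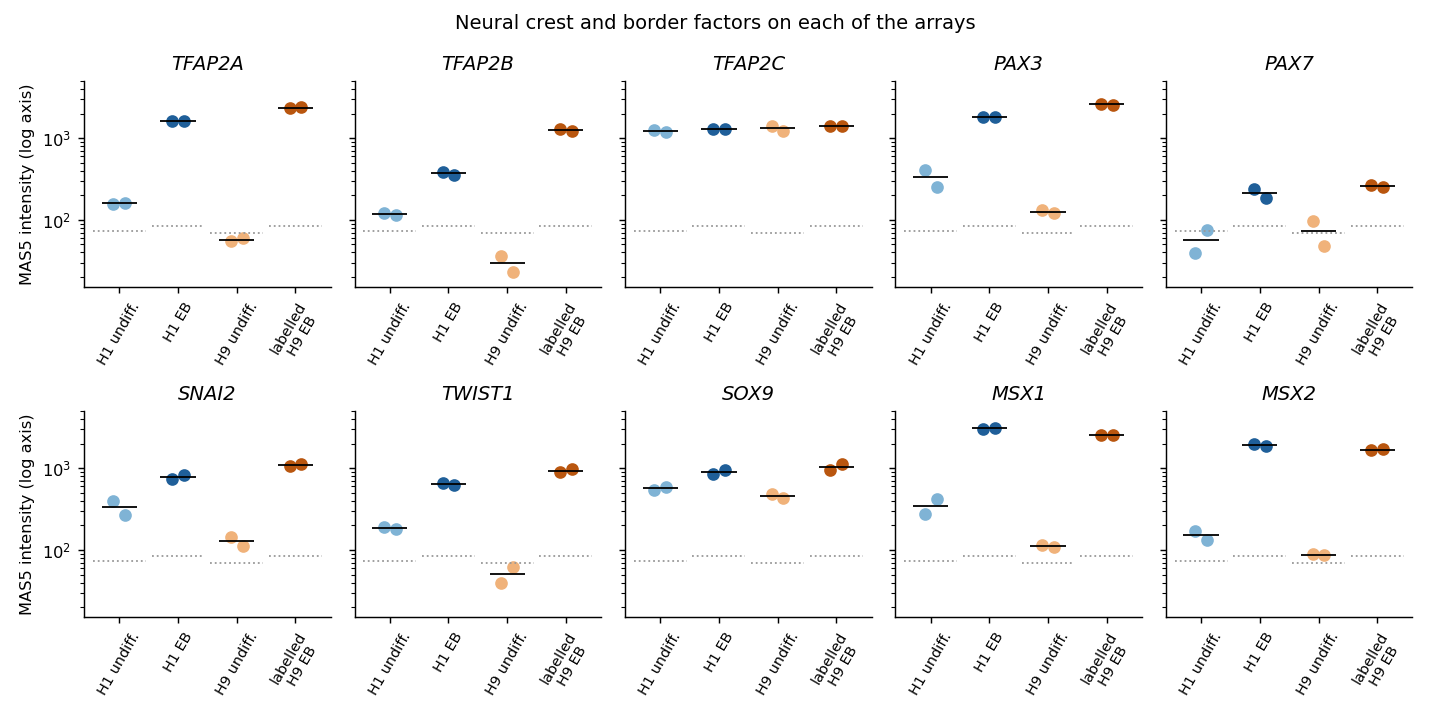
MAS5 intensity on a log axis for each factor, with 1 point per array, 2 arrays per group, black lines at group means and dotted grey lines at the mean array median of the group. TFAP2C stays between 1205 and 1424 on all arrays, while TFAP2A, TFAP2B and TWIST1 lie below the dotted line in undifferentiated H9 and well above it in EB.

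The TFAP2 genes encode AP-2 factors, which bind DNA as dimers and open ectodermal and crest enhancers. TFAP2A read 157 and 162 in undifferentiated H1, 1607 and 1619.9 in H1 EB, 54.6 and 60.3 in undifferentiated H9, and 2336 and 2396 on the arrays labelled H9 EB. No groups overlapped, and undifferentiated H9 was the lowest and dim. TFAP2A rose by 3.21 ± 0.10 (SE) in H1 (adjusted p = 8.53e-10) and at least 34.0-fold in H9, taking the array median for the dim signal (adjusted p = 3.13e-11).

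TFAP2B, which acts in sympathetic, cardiac and craniofacial crest and in kidney, read 122 and 115 in undifferentiated H1, 387 and 355 in H1 EB, 36.0 and 23.0 in undifferentiated H9, and 1308 and 1230.0 on the arrays labelled H9 EB. It was dim in undifferentiated H9, and the EB groups of the lines were far apart, with the arrays labelled H9 EB at 342% of H1 EB. It rose by 1.52 ± 0.16 in H1 (adjusted p = 1.48e-05) and at least 18.2-fold in H9 (adjusted p = 1.45e-09).

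TFAP2C, which also works in trophoblast, germ cells and human stem cells near the naive state, was bright throughout. It read 1249 and 1205 in undifferentiated H1, 1312 and 1288 in H1 EB, 1415 and 1231 in undifferentiated H9, and 1419 and 1424 on the arrays labelled H9 EB. In each line the EB arrays lay just above the undifferentiated ones. Its average change of 0.094 ± 0.055 was not called (adjusted p = 0.151), with a 95% interval from -0.027 to 0.22, and turned to -0.10 when each array was centred on its median. Under that centring the median over all tested genes goes from 0.010 to -0.19. Without undifferentiated H9 replicate 1 the change of TFAP2C was 0.14 and called (adjusted p = 0.0300).

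PAX3 and PAX7 are paired-box factors of the border, the dorsal neural tube and the muscle-forming somite. PAX3 read 409.9 and 255 in undifferentiated H1, 1811 and 1831 in H1 EB, 132 and 121 in undifferentiated H9, and 2639 and 2573 on the arrays labelled H9 EB. The 4 groups were apart, in the order undifferentiated H9, undifferentiated H1, H1 EB, arrays labelled H9 EB. PAX3 rose by 2.43 ± 0.17 in H1 (adjusted p = 9.20e-07) and by 4.21 ± 0.17 in H9 (adjusted p = 1.56e-08).

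PAX7 stayed faint. It read 39.0 and 75.6 in undifferentiated H1, 240.2 and 184 in H1 EB, 97.1 and 48.4 in undifferentiated H9, and 269 and 255 on the arrays labelled H9 EB. Only 1 array of each undifferentiated group was above the array median, and the undifferentiated groups overlapped while EB lay above them. Its change rests partly on dim values and was 1.67 ± 0.31 in H1 (adjusted p = 0.000823) and 1.70 ± 0.31 in H9 (adjusted p = 0.000679). When its probe sets were averaged, the change in H1 was 0.85 and lost its call (adjusted p = 0.158).

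MSX1 and MSX2 are homeobox targets of BMP signalling, known as repressors at the border and in limb and tooth buds. MSX1 read 279 and 418 in undifferentiated H1, 3041 and 3150.5 in H1 EB, 115 and 109.8 in undifferentiated H9, and 2536 and 2558 on the arrays labelled H9 EB. MSX2 read 170.2 and 132 in undifferentiated H1, 1976 and 1875 in H1 EB, 89.1 and 86.8 in undifferentiated H9, and 1665 and 1709.6 on the arrays labelled H9 EB. For these probe sets the H1 arrays lay above the H9 arrays in each state, a difference that was not called in EB. The MSX2 probe set belongs to a class whose probes may also bind related transcripts.

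MSX1 rose by 3.12 ± 0.15 in H1 (adjusted p = 3.81e-08) and by 4.32 ± 0.15 in H9 (adjusted p = 2.71e-09). MSX2 rose by 3.55 ± 0.12 in H1 (adjusted p = 1.81e-09), the largest change of the 10 factors in that line, and by 4.03 ± 0.12 in H9 (adjusted p = 5.74e-10).

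Among the crest specifiers, SNAI2 encodes the zinc finger repressor SLUG, which lowers E-cadherin as crest cells leave the epithelium. SNAI2 read 396 and 272 in undifferentiated H1, 748 and 835 in H1 EB, 145 and 112 in undifferentiated H9, and 1083 and 1134 on the arrays labelled H9 EB. Undifferentiated H1 already stood at 42.2% of H1 EB, and undifferentiated H9 at 11.6% of the arrays labelled H9 EB. SNAI2 rose by 1.23 ± 0.17 in H1 (adjusted p = 0.000106) and by 2.97 ± 0.17 in H9 (adjusted p = 1.33e-07).

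TWIST1, a basic helix-loop-helix factor of cranial crest and mesoderm, read 194 and 179 in undifferentiated H1, 670 and 625 in H1 EB, 39.4 and 61.8 in undifferentiated H9, and 898 and 977 on the arrays labelled H9 EB. It was dim in undifferentiated H9 and clear elsewhere. TWIST1 rose by 1.71 ± 0.16 in H1 (adjusted p = 5.57e-06) and at least 13.5-fold in H9 (adjusted p = 8.93e-09).

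SOX9, which drives crest survival and later cartilage, was well above the array median before differentiation and moved least among the called factors. It read 550.2 and 589 in undifferentiated H1, 846 and 963 in H1 EB, 482 and 438 in undifferentiated H9, and 948 and 1129 on the arrays labelled H9 EB. EB lay above undifferentiated cells in both lines, and the EB groups overlapped each other. The rise was 0.65 ± 0.11 in H1 (adjusted p = 0.000417) and 1.14 ± 0.11 in H9 (adjusted p = 5.32e-06).

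**Figure D2:**
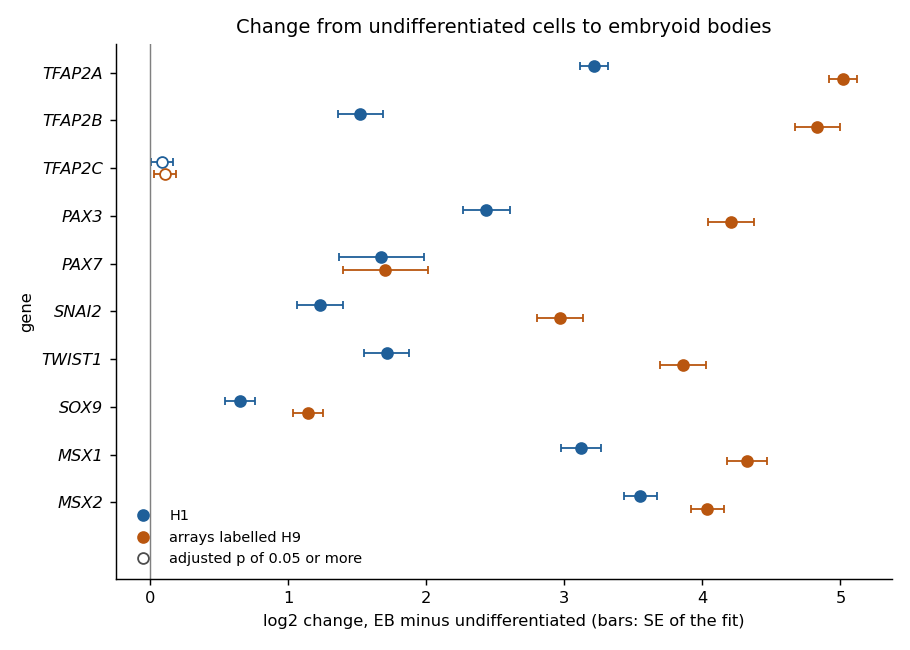
The log2 change from undifferentiated cells to EB for each factor (x axis) in H1 and in the arrays labelled H9, as points with bars for the SE of the fit over 8 arrays; open points have an adjusted p of 0.05 or more. TFAP2C alone lies near 0, and the points of TFAP2B are farthest apart, at 1.52 and 4.83, the latter measured from a dim group.

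Before differentiation the arrays of the lines already differed. The labels do not give separate cultures within a line, so line and culture cannot be told apart. Undifferentiated H1 carried more signal than undifferentiated H9 for 7 of the 10 factors (TFAP2A, TFAP2B, PAX3, SNAI2, TWIST1, MSX1 and MSX2), where 12.5% of all tested genes were called lower in H9. No factor was called higher in H9, against 13.7% of all genes; at an unadjusted p under 0.05 there was also none, and no other setting gave one. The 2 undifferentiated H1 arrays lay above both undifferentiated H9 arrays for 8 of 10 factors, SOX9 included, against 29.5% of all genes. The median difference, H9 minus H1, was -1.26 over the 10 factors and 0.010 over all tested genes. Without both arrays labelled H9 EB the same contrast again called 7 lower.

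TWIST1 differed at least 2.68-fold, TFAP2A at least 2.29-fold and TFAP2B at least 1.71-fold, each dim in undifferentiated H9 (adjusted p = 5.20e-05, 1.04e-05 and 6.86e-05). MSX1 was lower in H9, with a difference of -1.48 ± 0.15 (adjusted p = 6.20e-05), a ratio of 3.10 between mean intensities. PAX3 and SNAI2 were lower too, with differences of -1.26 ± 0.17 each (adjusted p = 0.000540 and 0.000453), at ratios of 2.64 and 2.59. The replicates of undifferentiated H1 were themselves uneven for these genes, with PAX3 and SNAI2 higher in replicate 1 and MSX1 higher in replicate 2. MSX2 was lower, at -0.67 ± 0.12 (adjusted p = 0.00238). Its call was lost in a fit of the 4 undifferentiated arrays alone (adjusted p = 0.0574) and where its probe sets were averaged (adjusted p = 0.173). Averaging the probe sets also ended the calls of PAX3 (-0.30, adjusted p = 0.405) and TFAP2A (-0.22, adjusted p = 0.540), which left 4 factors lower.

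SOX9 differed by -0.30 ± 0.11, which missed the threshold (adjusted p = 0.0699), with an interval from -0.54 to -0.055. TFAP2C differed by 0.10 ± 0.078 (adjusted p = 0.362), with an interval from -0.067 to 0.28. PAX7 differed by 0.27 ± 0.31 (adjusted p = 0.571), with an interval from -0.42 to 0.95.

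**Figure D3:**
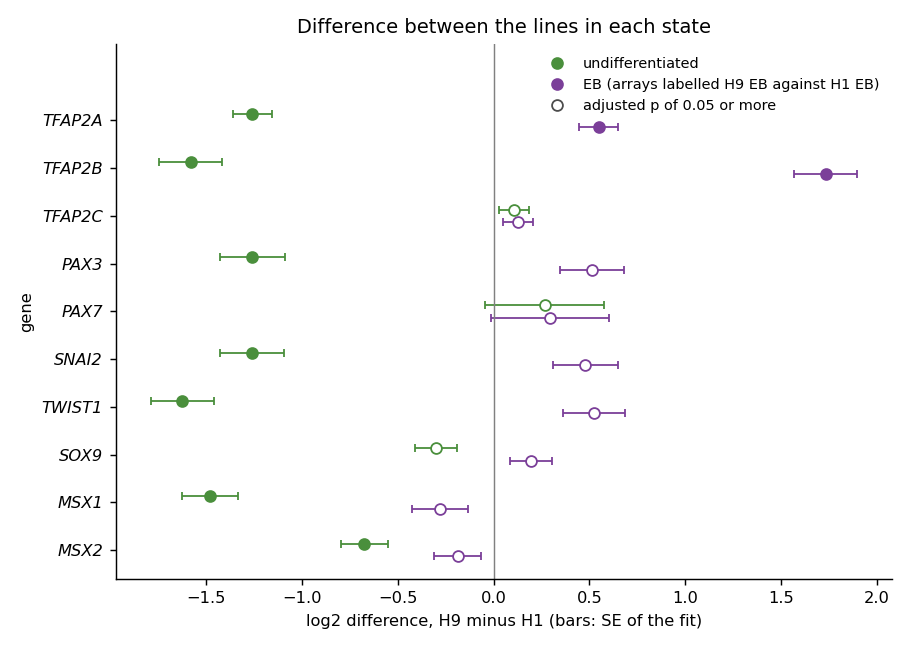
The log2 difference H9 minus H1 for each factor (x axis) in undifferentiated cells and in EB, as points with bars for the SE of the fit over 8 arrays; open points have an adjusted p of 0.05 or more. Of the undifferentiated points 8 lie left of 0 and 7 are called, while in EB the called points, TFAP2A and TFAP2B, lie right of 0.

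In EB no factor was called lower in H9. Between the arrays labelled H9 EB and H1 EB, TFAP2B was higher by 1.73 ± 0.16 (adjusted p = 0.000134) and TFAP2A by 0.55 ± 0.10 (adjusted p = 0.00556), so that 2 of 10 were called higher and none lower, where 8.0% of all genes were higher and 7.31% lower. The call of TFAP2A was lost without H1 EB replicate 1 (adjusted p = 0.0563) and without H9 EB replicate 1 or 2 (adjusted p = 0.0531 and 0.0573). PAX3, SNAI2 and TWIST1 differed by 0.51, 0.48 and 0.52 without passing (adjusted p = 0.0685, 0.0840 and 0.0534). Leaving out undifferentiated H1 replicate 1 or 2 called PAX3 (adjusted p = 0.00561 and 0.00509) and SNAI2 (0.0373 and 0.0358), and leaving out undifferentiated H9 replicate 1 or 2 called TWIST1 (0.0142 and 0.0151). MSX1 and MSX2 differed by -0.28 and -0.19 (adjusted p = 0.233 and 0.337), with intervals from -0.60 to 0.044 and from -0.46 to 0.079, and MSX1 was called lower without undifferentiated H1 replicate 1 or 2 (adjusted p = 0.0377 and 0.0404). The arrays labelled H9 EB lay above H1 EB for 7 factors and below for 2, against 33.0% and 28.2% of all genes. This comparison cannot be made without the arrays in doubt.

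The change on going to EB was larger in H9 than in H1 for 7 of 10 factors by the test of that difference and smaller for none, where 11.5% of all genes had a larger and 11.2% a smaller change in H9. It was 3.31 ± 0.23 larger for TFAP2B (adjusted p = 1.60e-05), 2.15 ± 0.23 for TWIST1 (adjusted p = 0.000177), 1.81 ± 0.14 for TFAP2A (adjusted p = 3.13e-05), 1.77 ± 0.24 for PAX3 (adjusted p = 0.000910), 1.74 ± 0.24 for SNAI2 (adjusted p = 0.000879) and 1.20 ± 0.21 for MSX1 (adjusted p = 0.00277). SOX9, at 0.49 ± 0.16, was called narrowly (adjusted p = 0.0436), and lost the call without any single array other than H1 EB replicate 2 or H9 EB replicate 1 (adjusted p = 0.0502 to 0.164). For TFAP2A, TFAP2B and TWIST1 these values rest on dim signals in undifferentiated H9. The test shares its undifferentiated arrays with the comparison of the lines before differentiation, and all of it rests on the arrays labelled H9 EB.

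MSX2 did not pass the same test (0.49 ± 0.17, adjusted p = 0.0645, with an interval from 0.11 to 0.86), and did without undifferentiated H1 replicate 2 (0.65, adjusted p = 0.0151). TFAP2C and PAX7 had differences of 0.023 and 0.029, with intervals from -0.22 to 0.27 and from -0.94 to 0.996. As a share of the EB level of the same line, undifferentiated H1 stood at 7.84% for MSX2, 9.90% for TFAP2A, 11.3% for MSX1, 18.3% for PAX3, 28.8% for TWIST1 and 32.0% for TFAP2B. Undifferentiated H9 stood at 4.41% of the arrays labelled H9 EB for MSX1, 4.84% for PAX3 and 5.21% for MSX2, and no share is given for TFAP2A, TFAP2B and TWIST1, which were dim there.

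The other probe sets were read as a check. Of 13, 7 passed the filter, and all 7 were called higher in EB on average in a fit of every probe set on its own. Of all tested genes, each taken by its brightest probe set, 35.4% were called higher, so the units differ. The other probe sets of TFAP2A and PAX3 that passed the filter did so only through the arrays labelled H9 EB. The filter thus partly fixed their rise, and they are no check of it. Among those that failed, probe sets of MSX2, TFAP2A and TFAP2C changed by -0.34, -0.11 and -0.043. Those of PAX3, TFAP2B and PAX7 changed by 0.99, 0.84 and 0.70. The other tested TFAP2B probe set gave the same directions, with a change of 2.70 ± 0.15 and a difference of -1.29 ± 0.21 between the undifferentiated lines (adjusted p = 0.00215 over all probe sets). It was dim in undifferentiated H9 and above the array median on 1 undifferentiated H1 array, so these sizes are inexact. The line difference was not called in the other tested probe sets of TFAP2A, PAX3, MSX1 and MSX2. Those of TFAP2A and PAX3 were dim on every undifferentiated array, and so give no measure of it. The second MSX1 probe set read 89.0 ± 19.0 (SD, n = 2) in undifferentiated H1 and 79.9 ± 25.4 in undifferentiated H9, a difference of -0.14 ± 0.22. That of MSX2 read 106 ± 10.4 and 90.0 ± 12.7, a difference of -0.21 ± 0.13. For TFAP2A, PAX3, MSX1 and MSX2 the line difference therefore rests on 1 probe set each, and SNAI2 and TWIST1 have only 1. The second SOX9 probe set rose by 0.899 ± 0.10, as the first did.

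Likeness was measured as the root mean square (RMS) difference of log2 values, each centred on its mean over 8 arrays. This is a description over 4 groups. MSX1 and MSX2 (0.37), PAX3 and TWIST1 (0.36), TFAP2A and MSX2 (0.38) and TFAP2A and MSX1 (0.39) were the closest pairs, while TFAP2C and TFAP2A, members of 1 family, were the farthest apart (2.08). SNAI2 was nearest TWIST1 (0.44). SOX9 and TFAP2C, the factors that moved least, differed by 0.44. The median over all tested genes was 0.28 from TFAP2C and 0.54 from SOX9, so most genes were nearer to TFAP2C than SOX9 was. Among all tested genes, the nearest to TFAP2A was HAS2, a hyaluronan synthase gene (0.21), to TFAP2B GREM1, encoding a BMP antagonist (0.46), to PAX3 EMP1 (0.22), to TWIST1 CPED1 (0.17), to SNAI2 PAG1 (0.22), to MSX1 AMER2 (0.18) and to MSX2 FRZB, encoding a WNT antagonist (0.13). The nearest to PAX7 was SCN7A (0.15), to SOX9 MAN1A2 (0.083) and to TFAP2C FBXW5 (0.033). PAX3 was the third nearest gene to TFAP2B.

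**Figure D4:**
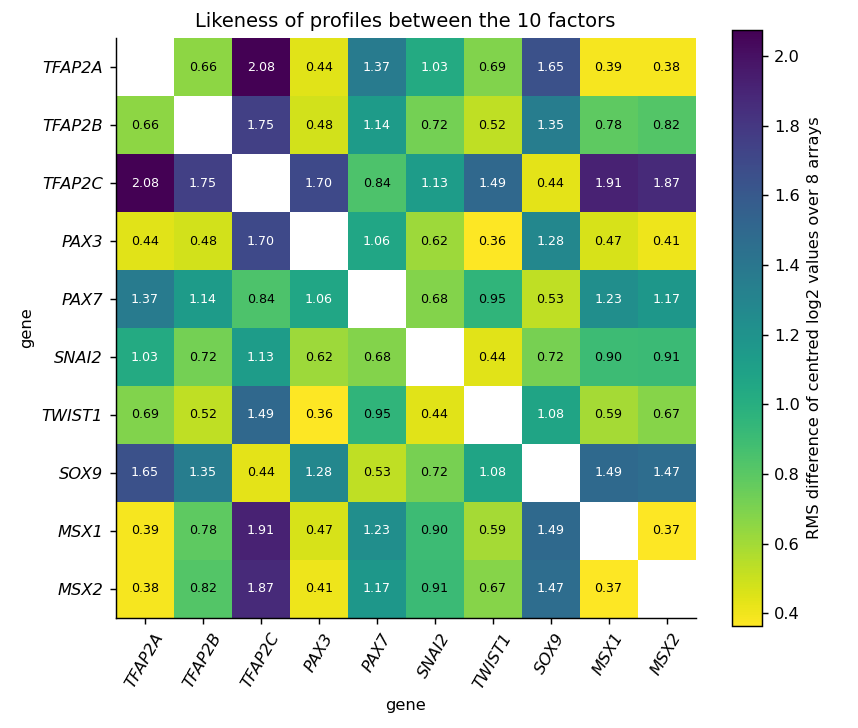
RMS difference of centred log2 values over 8 arrays for each pair of factors, with genes on both axes and colour and numbers giving the difference. The lowest value is that of PAX3 and TWIST1 (0.36) and the highest that of TFAP2A and TFAP2C (2.08).

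Other border and crest transcription factors moved less evenly than the 10. Of 23 tested from a list of 32, 13 rose and 6 fell in EB on average, with a median of 0.86, and 13 rose and 5 fell in H1. For this and the lists that follow, the shares over all tested genes were 35.4% higher and 33.1% lower on average, and 29.6% and 28.1% in H1. ZIC1, a zinc finger factor of the border, rose by 4.49 ± 0.095 (adjusted p = 5.05e-11), NR2F1, a nuclear receptor, by 4.11 ± 0.063 (adjusted p = 1.72e-12) and PRDM1 by 2.92 ± 0.11 (adjusted p = 1.14e-09). Their changes in H1 were 3.43, 2.38 and 3.11. FOXD3, used by both stem cells and crest, fell by 1.23 on average (adjusted p = 3.94e-07), with means of 554 and 167 before and after in H1 and 814 and 454 in H9. SOX10, which marks migrating crest, rose by 0.98 on average (adjusted p = 5.60e-05) and was faint, with means of 119 and 176 in H1 and 141 and 417 in H9. NGFR, a surface receptor used to sort crest, was below the array median on all 8 arrays. ERBB3, a receptor of crest and of its glia, read 1971 and 1936 in H1 and 1653 and 2649 in H9 before and after.

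Of 14 tested surface and effector genes of the crest, 11 rose and 3 fell, with a median of 1.37, and 10 rose and 3 fell in H1. CDH6, the cadherin of early crest, rose by 4.23 ± 0.061 (adjusted p = 1.44e-12), CDH2 by 2.10 ± 0.035 and COL2A1 by 2.26 ± 0.046, with changes in H1 of 2.74, 2.12 and 1.88. The genes that fell on average were RET (-0.81), EDNRB (-0.76) and B3GAT1 (-0.29), with changes in H1 of -0.53, -1.10 and -0.73. With the arrays labelled H9 EB, their changes in H9 were -1.09, -0.42 and 0.14, that of B3GAT1 not called (adjusted p = 0.326). Of 22 genes of the signals that induce the border, 18 rose and 2 fell, with a median of 1.51, and BMP2, BAMBI and ID4, all of BMP signalling, had the smallest p (changes of 3.08, 2.34 and 2.19).

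Genes of some tissues that share these factors rose beside them, and their part in the result was not tested. In H1 alone, 13 of 13 neural plate genes rose. Amnion and trophoblast had 6 higher and 1 lower of 10, and preplacodal ectoderm 7 and 1 of 11. Surface ectoderm had 4 higher and 3 lower of 8, and mesoderm 1 and 1 of 6. The counts that follow are averages over the lines. Of 13 neural plate genes 12 rose, and their summed intensity was 7254 to 7599 in undifferentiated H1, 25004 to 25881 in H1 EB, 8787 to 8995 in undifferentiated H9 and 22672 to 22690.2 on the arrays labelled H9 EB. Of 10 tested amnion and trophoblast genes 6 rose and 2 fell, with sums of 1737 to 1769 and 8798 to 9353 in H1. The sums were 1909.9 to 1934 in undifferentiated H9 and 6058 to 6217 on the arrays labelled H9 EB. GATA3 went from 112 to 2134 in H1 and ISL1 from 111 to 680.3, while GABRP fell by 0.39 on average (adjusted p = 0.00812), with means of 141 and 180.0 in H1 and 358 and 158 in H9, and VTCN1 was below the array median on 7 of 8 arrays. Of 11 preplacodal genes 9 rose and 1 fell, with EYA1 up by 2.59 and DLX5 by 3.14. DLX5 was below the array median on every undifferentiated array, with means of 7.50 in H1 and 20.2 in H9. It passed the filter only through EB, which partly fixed its rise, and the size is inexact. Of 8 surface ectoderm genes 4 rose and 2 fell, with sums of 44068 to 44601 and 53276 to 53346 in H1. GRHL3 rose by 2.67 and KRT14 was below the array median on every array. Of 14 mesoderm genes with a probe set only 6 passed the filter, and 3 of these rose and 1 fell. TBX6 and MESP1 were among those not tested. Their means in H1 were 60.9 and 28.6 before and 49.2 and 61.1 after. MEOX1, a somite gene, rose by 2.53 ± 0.25 (adjusted p = 3.35e-06). It was above the array median on every EB array and below it on every undifferentiated array. Its undifferentiated means were 34.8 in H1 and 10.9 in H9. It thus passed the filter only through EB, which partly fixed its rise, and the size is inexact. TBXT was not called (0.20 ± 0.15, adjusted p = 0.256). The sum of the list, over all 14 genes with a probe set, was lower in EB.

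The lines differed in these lists before differentiation as well, where 12.5% of all tested genes were lower and 13.7% higher in undifferentiated H9. Of 14 crest surface genes 8 were lower in undifferentiated H9 and none was higher, and their sum was 19659 to 19751 in H1 and 14921 to 15816 in H9. CDH6 differed by -2.13 ± 0.086 (adjusted p = 6.29e-08) and TNC by -1.27 ± 0.10 (adjusted p = 1.10e-05). Of the 23 other border and crest factors 6 were lower and 4 higher, and the smallest p were those of NR2F1, at -2.58 ± 0.089 (adjusted p = 1.90e-08), and ZIC1, at -2.32 ± 0.13 (adjusted p = 2.10e-06). Of 22 genes of the inducing signals 8 were lower and 4 higher. ID3 and LEF1, which report BMP and WNT signalling, differed by -0.58 ± 0.048 and -1.10 ± 0.11 and were called lower, whereas the BMP targets ID1 and ID2 (0.29 and 0.33) and the Notch genes HES1 and DLL1 (0.68 and 0.93) were called higher.

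Of 13 neural plate genes 6 were higher in undifferentiated H9 and 3 lower, against the same shares of all genes. OTX2 was higher by 0.84 ± 0.053, HES5 by 1.52 ± 0.15, PAX6 by 1.30 and LHX2 by 1.36. The genes called lower were POU3F2 (-1.33), NES (-0.49) and MEIS2 (-0.38), and SOX1 differed by -0.33 without passing (adjusted p = 0.0653). Calls were 1 higher and 2 lower of 10 for amnion and trophoblast, 1 and 1 of 11 for preplacodal ectoderm, 0 and 2 of 8 for surface ectoderm and 0 and 1 of 6 for mesoderm, near the shares of all genes. GABRP was the amnion gene called higher (1.25, adjusted p = 0.000223). Of 15 pluripotency genes 3 were lower in undifferentiated H9, and NANOG differed by -0.15 (adjusted p = 0.0745) and SOX2 by -0.12 (adjusted p = 0.167). The part of these genes in the difference of the 10 factors was not tested.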

How the data were processed

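RNA was measured on 8 arrays in 4 groups of 2. What the authors deposited is linear MAS5 intensity, per the submitters' processing notes (its version is not given in the sources used here). Every array had a trimmed mean of 500.1, so a common scaling preceded deposit. MAS5 makes low values noisy. The depth of arrays is not a count; their number limits precision.

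Of 19775 genes with a single-symbol probe set, 14056 were tested, those whose brightest probe set exceeded the array median on at least 2 arrays. Values were log2(intensity + 16), which understates changes of low genes. A single limma model with a mean for each of 4 groups (limma 3.58.1, R 4.3.3, eBayes with trend and robust, 4 residual degrees of freedom) gave 6 contrasts, called at an adjusted p under 0.05, with standard errors and intervals of 95%; it was tested on simulated data. "At least N-fold" sets the bright group's mean log2 intensity against the array median or, if higher, the dim signal. Alternatives were quantile or median scaling, added values of 1 and 64, other filters and probe set rules, plain eBayes, a minimum change of 1, a replicate block, fewer arrays and each array left out. The genes, lists and rules were chosen with earlier results of these data known. Named genes were the 10 factors, the defining markers, NANOG and SOX2, and the nearest genes by likeness. Per list, the 3 smallest p in the mean contrast and 2 in the undifferentiated contrast were also named. RET, EDNRB, B3GAT1, ID1, ID2, HES1, DLL1, POU3F2, NES and MEIS2 were added after their values were seen. A housekeeping list of 10 tested genes had 2 higher and 5 lower in EB, and one of 10 germ cell and naive genes had 4 and 4.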

Additional observations from a re-analysis of the deposited data

Results flagged for a closer look

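The EB change differed between the lines by the test of the difference itself (limma, adjusted over all tested genes) for 7 factors. It was larger in H9 than in H1 by 3.31 for TFAP2B, 2.15 for TWIST1, 1.81 for TFAP2A, 1.77 for PAX3, 1.74 for SNAI2, 1.20 for MSX1 and 0.49 for SOX9 on the log2 scale. In each case undifferentiated H9 was the lowest of the 4 groups, and the values rest on the arrays labelled H9 EB. For SOX9 the call was lost in 13 of 19 alternatives, with adjusted p from 0.0339 to 0.164. For TFAP2A and MSX1 it was lost with the mean of all probe sets (0.65 and 0.61, adjusted p = 0.202 and 0.116).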

How the results depend on the processing

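The counts of factors called higher in EB, on average and in each line, stayed within 1.5 times the main count under every alternative run. With the mean of all probe sets, which averages in dim ones, the factors lower in undifferentiated H9 went from 7 to 4, PAX3 changing to -0.30 (adjusted p = 0.405) and TFAP2A to -0.22 (adjusted p = 0.540), and the factors with a larger EB change in H9 from 7 to 4. Between H9 EB and H1 EB the factors called higher numbered 2, but 1 with a minimum change of 1, 4 with an added value of 64 or with quantile normalization, and 5 with only the 4 arrays compared, which also called 1 lower (MSX1). Leaving out 1 array at a time gave 1 to 4 higher and 0 to 1 lower. The cause was not tested.

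Changes of sign were limited to TFAP2C and PAX7, which were not called in the contrasts concerned. With centred arrays TFAP2C gave -0.10 on average, -0.072 in H1, -0.13 in H9 and -0.062 for the difference of the EB change, and with the mean of probe sets -0.053 in H1. PAX7 gave -0.055 with centred arrays, -0.016 with an added value of 1 and -0.033 with quantile normalization for that difference, and -0.049 with the mean of probe sets between undifferentiated lines. Leaving out 1 array moved the difference of the EB change from -0.076 to 0.12 for TFAP2C and from -0.38 to 0.44 for PAX7, and the undifferentiated difference of PAX7 from -0.14 to 0.67. Under the alternatives, 1143 values for single factors kept direction and call, 28 lost a call, 22 gained one and 17 changed sign.

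Replicate numbers shared across groups gave correlations of deviations from -0.046 to 0.054, so they pair nothing. With the replicate block the counts were 9 higher in EB and 7 lower in undifferentiated H9, and PAX3 was called between H9 EB and H1 EB (adjusted p = 0.0480), which made 3 there. Where 1 array is left in a group it is assumed to vary like the other groups. Dim signals of undifferentiated H9 limit the exact size of the changes of TFAP2A, TFAP2B and TWIST1.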
